A study of Mus musculus with 18 samples.

Results

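Splenic CD4 T cells given anti-Ox40 with few stimulating beads were compared with cells given an isotype control antibody (control Ig) and 10 times as many beads. The question is how far ligation of Ox40 can stand in for that larger bead dose. The comparison uses 6 of the 18 RNA sequencing libraries of the series, chosen by their labels, 3 in each group. Cells of the anti-Ox40 group received 0.1 bead per cell ("low beads"), and cells of the control Ig group received 1 bead per cell ("high beads"). Another group of 3 libraries, control Ig with low beads, is given where it helps to read the others, and is called the low-bead control below. All cells came from female NZB/W F1 mice, a lupus-prone hybrid, aged 21 to 27 weeks with proteinuria of 30 to 100 mg/dL. All were cultured for 48 hours in wells of 250000 cells, with 10 U/mL of IL-2, anti-CD3/CD28 beads and either antibody, both IgG1, at 25 µg/mL. The labels do not say whether libraries of a group came from separate mice, cultures or pools, and p-values here can reflect technical spread alone.

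Ox40, encoded by Tnfrsf4, is a costimulatory receptor of the TNF receptor superfamily that appears on T cells after they are activated. Its ligand, encoded by Tnfsf4, is carried mainly by antigen-presenting cells, and the bound receptor recruits TRAF adaptors that lead to canonical and noncanonical NF-kB activation. Beads coated with anti-CD3 and anti-CD28 drive the T cell receptor and the CD28 costimulatory receptor directly, which turns on calcium, AP-1 and NF-kB signalling, growth metabolism and division.

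Expression is given as nRPKM, the authors' normalised number of reads scaled for gene length and library size. Differences are on the log2(nRPKM + 1) scale, anti-Ox40 with low beads minus control Ig with high beads, so a negative value means a lower level with anti-Ox40. A gene was called at an adjusted p under 0.05 in limma. An nRPKM of 1 over 1 kb stood for 31.6 to 43.6 reads in these 6 libraries, and 11867 to 12118 genes per library reached that level. Cd4 had 267, 238 and 241 nRPKM in anti-Ox40 cultures, against 192, 191 and 197 nRPKM in high-bead cultures. Cd3e, a chain of the T cell receptor complex, lay between 205 and 245 nRPKM in all 6, and Cd8a was at most 0.284 nRPKM. Transcripts of other cells were present. The summed level of 14 myeloid markers was 110 to 138 nRPKM in anti-Ox40, 42.6 to 51.0 in high-bead and 123 to 133 in low-bead control cultures, and 8 of 12 tested members were higher with anti-Ox40 than with high beads. For 8 platelet markers the sums were 75.2 to 83.2 nRPKM with anti-Ox40 and 43.0 to 52.1 nRPKM with high beads, and 6 of 7 tested members were higher. None of 8 tested B cell markers and none of 8 tested lung epithelial markers was called, and their sums overlapped between the groups. Of the other marker lists, 2 of 4 tested neutrophil genes were higher, as were 3 of 5 NK cell genes with 1 lower. For plasma cell genes 2 of 6 were higher and 3 lower, and for dendritic cell genes 1 of 2 was higher and 1 lower. Among all tested genes 27.6% were higher and 35.9% lower. Sums of NK cell markers ran the other way, at 31.4 to 38.6 nRPKM with anti-Ox40 and 54.5 to 86.9 nRPKM with high beads. Plasma cell sums were 208 to 236 and 357 to 404 nRPKM, and dendritic cell sums 4.71 to 6.01 and 7.27 to 8.73 nRPKM. Neutrophil sums overlapped. The 1 tested CD8 T cell gene, Cd8b1, was not called, 0 erythroid genes passed the filter, and 2 of 5 nuclear RNA and RNA quality genes were higher and 2 lower. Several of these markers, such as Gzma, Eomes, Irf4 and Xbp1, are also expressed by T cells, and the part of other cells in the results below was not tested. The nuclear RNA Malat1 had 213, 248 and 254 nRPKM in anti-Ox40 cultures, against 86.4, 109 and 62.9 nRPKM in high-bead cultures. In bulk RNA, fewer cells of a type and less RNA per cell cannot be told apart.

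Anti-Ox40 cultures with low beads differed from high-bead cultures at most genes. Of 13075 tested genes, 8300 (63.5%) were called, 3608 higher with anti-Ox40 (27.6%) and 4692 lower (35.9%). Most differences were modest: the median absolute difference was 0.26 and the median difference was -0.04, while 285 genes were higher and 289 lower by at least 1 log2 unit. A library of the anti-Ox40 group correlated across genes with a high-bead library at 0.956 to 0.967 (Pearson, 9 pairs), with a low-bead control library at 0.985 to 0.994 and with another library of its own group at 0.992 to 0.993. After adjustment for a nuclear RNA score (the mean log2 level of Malat1 and Neat1), 4473 genes were called, 2090 higher and 2383 lower. That score was 7.43 to 7.49 in anti-Ox40 and 6.29 to 6.59 in high-bead cultures, so the score and the treatment cannot be told apart. In low-bead controls it was 8.21, 7.19 and 8.12, and its part in the comparisons with that group below was not tested.

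**Figure D1:**
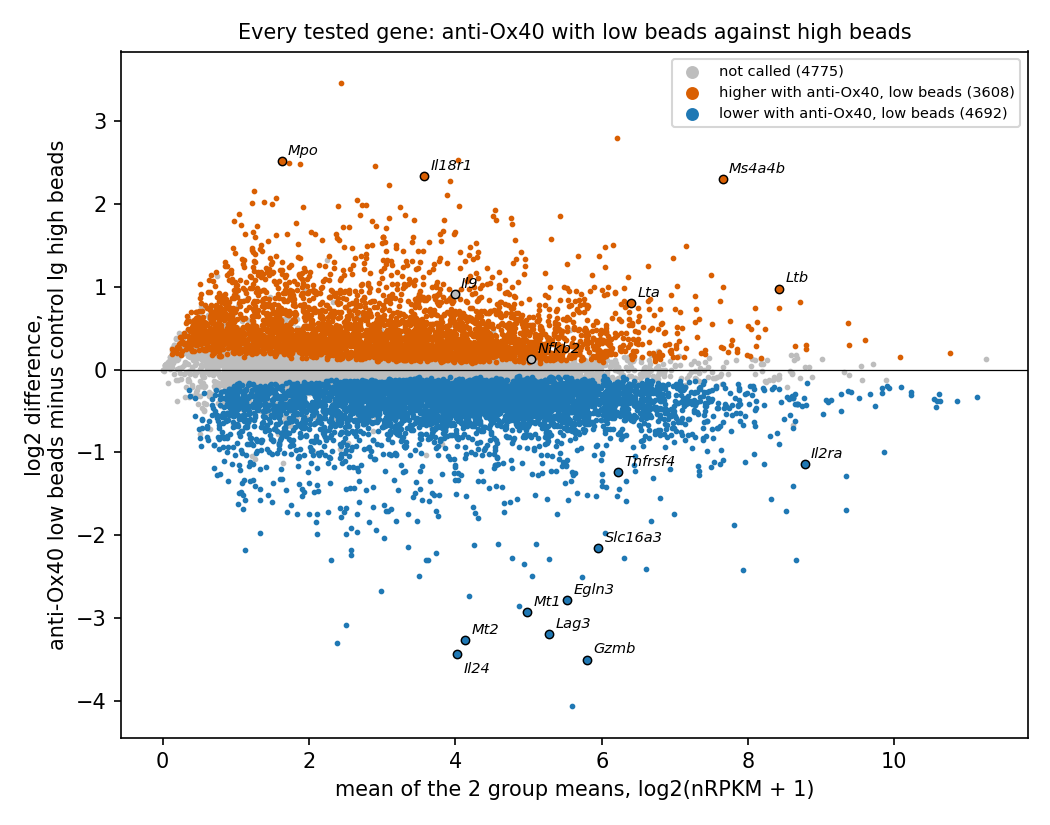
Each point is a gene, with the mean of the anti-Ox40 low-bead and control Ig high-bead group means on log2(nRPKM + 1) across and their log2 difference up (positive is higher with anti-Ox40). Colours separate the 3608 genes called higher, the 4692 called lower and those not called, and the named genes run from Gzmb at -3.50 to Mpo at 2.51.

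The 2 components of this comparison stand side by side, and they share the low-bead control libraries. Anti-Ox40 minus control Ig at low beads gave 1254 called genes (9.59%), 804 higher and 450 lower, with a median absolute difference of 0.10. High minus low beads in control Ig gave 9483 called genes (72.5%), 5231 higher and 4252 lower, with a median absolute difference of 0.34. At least 1 log2 unit was passed by 16 genes upward and 0 downward in the antibody comparison, and by 470 upward and 464 downward in the bead comparison. The difference between anti-Ox40 low-bead and control Ig high-bead cultures equals the antibody effect minus the bead effect, so its test is the test that these effects differ.

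A bead-response scale was taken from 6 other libraries, those with anti-Ox40 and either high beads or no beads. The 300 genes most raised and the 300 most lowered there were averaged in each library, and the bead score is the first mean minus the second on the log2 scale. The score was 0.65, 0.89 and 0.72 in anti-Ox40 low-bead cultures, 2.97, 2.81 and 2.88 in control Ig high-bead cultures and 0.04, 0.43 and 0.12 in low-bead controls. The anti-Ox40 libraries therefore stood above every low-bead control and below every high-bead library. Measured from the low-bead control mean, they covered 17.1%, 25.8% and 19.5% of the step to the high-bead mean, or 20.8% on average. Leaving out any single library of the low-bead control or high-bead group gave averages from 18.4% to 24.1%. All libraries that gave the lists had anti-Ox40, so the lists can include genes that the antibody moves together with beads. Il9 and Stra6 are among the bead-raised genes. Whether this raised the share was not tested. Of the bead-raised genes, 0 were called higher with anti-Ox40 than with high beads and 286 were called lower. Of the bead-lowered genes 285 were higher and 1, LOC102635135, was lower. The shares of all tested genes were 27.6% higher and 35.9% lower. As the lists were chosen by bead dose, which also differs between the groups, these counts do not measure what the antibody adds. These lists were picked for strong bead responses and include some transcripts of other cells, such as Scgb1a1 and Sftpc of lung epithelium among the bead-raised genes and the myeloid genes Gpnmb, Clec4e, Clec4d and Slc11a1 among the bead-lowered genes. The summed myeloid markers were 110 to 138 nRPKM with anti-Ox40 and 42.6 to 51.0 nRPKM with high beads, and their part in the score was not tested. Their median differences were -0.66 for bead-raised and 1.14 for bead-lowered genes.

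**Figure D2:**
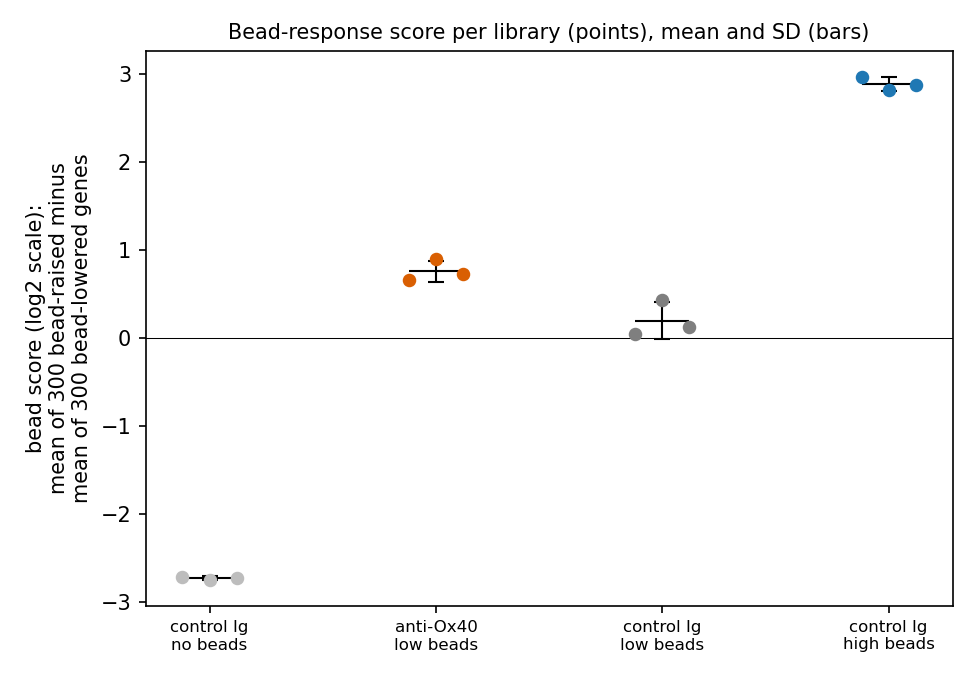
Points are libraries and bars are the mean and SD of 3, and the vertical axis is the bead score on the log2 scale for control Ig without beads, anti-Ox40 with low beads, control Ig with low beads and control Ig with high beads. The anti-Ox40 libraries lie at 0.65 to 0.89, above the low-bead controls and below the high-bead libraries at 2.81 to 2.97.

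The receptor under study was itself lower in anti-Ox40 cultures than in high-bead cultures. Tnfrsf4 (chr4:156013595-156016613, GRCm38) had 51.8, 46.1 and 45.4 nRPKM with anti-Ox40, against 127, 103 and 111 nRPKM with high beads. The groups did not overlap, and the difference was -1.23 ± 0.08 (SE, n = 3 each, adjusted p = 2.53e-09). Low-bead controls had 46.0, 40.0 and 40.3 nRPKM, and the antibody effect there was 0.18 with an adjusted p of 0.13. The ligand gene Tnfsf4 was low throughout, at 1.64, 1.73 and 1.89 nRPKM with anti-Ox40 and 3.06, 2.47 and 2.51 nRPKM with high beads, and was lower by -0.42 ± 0.11. Il2ra, the high-affinity chain of the IL-2 receptor, had 285, 312 and 284 nRPKM with anti-Ox40, against 697, 598 and 655 nRPKM with high beads. Its difference was -1.14. Cd69, an early activation receptor, was much closer, with 10.0, 10.2 and 9.27 nRPKM in anti-Ox40 cultures and 11.97, 12.9 and 11.4 nRPKM in high-bead cultures. The Cd69 difference of -0.27 was called (adjusted p = 0.0127), but it passed in 4 of 6 fits that left out a library. Of 18 genes of the IL-2 receptor and STAT5 response 11 were lower and 3 higher, and 5 were lower with the nuclear RNA covariate. Of 19 surface activation molecules 11 were lower and 4 higher, the higher ones being Cd80, Cd86, Pdcd1 and Cd274. CD4 T cell identity genes were higher for 4 of 14 and lower for 3, with a median of 0.06. Among all tested genes 27.6% were higher and 35.9% lower, and with the nuclear RNA covariate 2383 of 13075 were lower.

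Of 14 tested members of the TNF receptor superfamily, 5 were lower with anti-Ox40 than with high beads and 4 were higher, shares near those of all tested genes (35.9% lower and 27.6% higher), and the median was 0.09. The inducible costimulatory receptors made up most of the lower members. Tnfrsf18, which encodes GITR, had 211, 197 and 189 nRPKM with anti-Ox40 and 482, 412 and 429 nRPKM with high beads. Tnfrsf9, which encodes 4-1BB, differed by -1.23 and Tnfrsf8, which encodes CD30, by -1.52. Tnfrsf8 was also the member that moved with the antibody at low beads, with 39.1, 32.0 and 26.1 nRPKM with anti-Ox40 against 24.4, 19.0 and 15.1 nRPKM in low-bead controls (0.71, adjusted p = 0.012). The 4 higher members were Tnfrsf14, Tnfrsf25, Cd27 and Fas, at 0.68, 0.53, 0.32 and 0.49. Tnfrsf14 encodes HVEM, Tnfrsf25 encodes DR3, and Cd27 is a costimulatory receptor of resting T cells.

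The TNF ligands were mostly higher with anti-Ox40 than with high beads: 7 of 12 tested were higher, 2 were lower, and the median was 0.46, against 27.6% higher and 35.9% lower among all tested genes. Ltb, which encodes lymphotoxin beta, had 484, 475 and 485 nRPKM in anti-Ox40 cultures, against 233, 259 and 241 nRPKM in high-bead cultures. The difference was 0.98 ± 0.06 (adjusted p = 2.17e-09). Lta, which encodes lymphotoxin alpha, had 110, 119 and 104 nRPKM with anti-Ox40 and 70.4, 70.1 and 50.9 nRPKM with high beads (0.80). Cd40lg, which encodes the ligand that T cells use to help B cells, had 32.4, 29.6 and 32.2 nRPKM with anti-Ox40 and 10.7, 11.3 and 11.4 nRPKM with high beads. Its difference of 1.42 was the largest of the list, and with anti-Ox40 it stood near the low-bead control level of 33.96, 33.0 and 35.8 nRPKM. Tnfsf11, which encodes RANKL, differed by 1.14 and Tnf by 0.83.

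A few genes stood above both control groups in the anti-Ox40 libraries, and these were chosen after their values were seen. Lta had 73.7, 73.5 and 75.2 nRPKM in low-bead controls, and the antibody effect there was 0.57 (adjusted p = 0.026). For Ltb it was 0.25 (adjusted p = 0.022), and for Tnfsf11 it was 0.26 (adjusted p = 0.026). Cxcl10, a chemokine ligand of CXCR3, had 6.22, 4.17 and 4.62 nRPKM with anti-Ox40, 1.36, 2.57 and 1.35 nRPKM with high beads and 3.003, 2.48 and 2.40 nRPKM in low-bead controls. Kynu, an enzyme of tryptophan breakdown, had 2.01, 1.64 and 1.94 nRPKM with anti-Ox40, 0.428, 0.237 and 0.466 with high beads and 0.700, 0.692 and 0.631 in low-bead controls. Serpinc1, the gene of antithrombin, differed from high beads by 0.91 and from low-bead controls by 0.53. For all 6 genes the bead effect in control Ig was negative, from -0.23 for Lta to -0.88 for Tnfsf11, and those of Lta and Cxcl10 were not called (adjusted p = 0.15 and 0.078). Kynu passed the level filter in 3 of the 6 fits that left out a library, and was called in each.

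In the list of NF-kB subunits and feedback genes 10 of 24 members were higher with anti-Ox40, 4 were lower and 10 were not called. The median was 0.08, and among all tested genes 27.6% were higher and 35.9% lower. A 95% interval within 0.5 log2 units of 0 was found for 14 of the 24, near the 58.6% of all tested genes. Nfkb2, the precursor of the noncanonical subunit p52, had 36.7, 33.6 and 30.0 nRPKM with anti-Ox40, 35.7, 29.2 and 27.1 nRPKM with high beads and 21.9, 21.9 and 19.2 nRPKM in low-bead controls. The anti-Ox40 and high-bead ranges overlapped (0.13, adjusted p = 0.325), and both stood above the low-bead controls, by 0.64 and 0.52. Nfkbia, which encodes the inhibitor IkB-alpha, had 128, 126 and 98.6 nRPKM with anti-Ox40 and 115, 99.9 and 85.5 nRPKM with high beads (0.23, adjusted p = 0.173). Nfkb1 and Bcl3 were lower with anti-Ox40, by -0.48 and -0.92. Bcl3 encodes a nuclear coactivator of NF-kB, and had 50.9, 49.5 and 42.4 nRPKM with anti-Ox40 against 91.7, 88.2 and 91.3 nRPKM with high beads. Traf1, an adaptor of TNF receptors, had 93.4, 79.96 and 93.1 nRPKM with anti-Ox40 and 50.3, 44.6 and 46.6 nRPKM with high beads, and Rel was higher by 0.81. For Traf1 the low-bead controls, at 93.7, 84.2 and 95.8 nRPKM, overlapped the anti-Ox40 range.

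Transcription factors of T cell activation were mostly lower with anti-Ox40 than with high beads. In the AP-1, BATF and IRF list 10 of 15 tested genes were lower with anti-Ox40, against 35.9% of all tested genes, and 1, Mafk, was higher, with a median of -0.95. Irf4, whose level follows the strength of receptor signalling, had 36.9, 38.5 and 29.5 nRPKM with anti-Ox40 and 196, 164 and 159 nRPKM with high beads (-2.28). Low-bead controls had 23.0, 24.5 and 17.98 nRPKM. Nfil3 differed by -2.49, Irf8 by -1.60 and Batf, a partner of IRF4 on DNA, by -1.20. Batf3 was moved by the antibody as well, with 4.71, 4.71 and 3.73 nRPKM with anti-Ox40, 8.06, 6.61 and 6.98 nRPKM with high beads and 1.28, 1.41 and 1.13 nRPKM in low-bead controls. Its antibody effect was 1.24 and its bead effect 1.85. Immediate early and calcium feedback genes were lower for 13 of 17 tested and higher for 2, with a median of -0.42. Dusp5, a phosphatase that acts on ERK, had 20.6, 20.03 and 20.8 nRPKM with anti-Ox40, against 54.0, 47.8 and 49.3 nRPKM with high beads, and Nr4a1 differed by -1.05. For both the antibody effect at low beads was near 0, at 0.06 and 0.04, and neither was called.

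**Figure D3:**
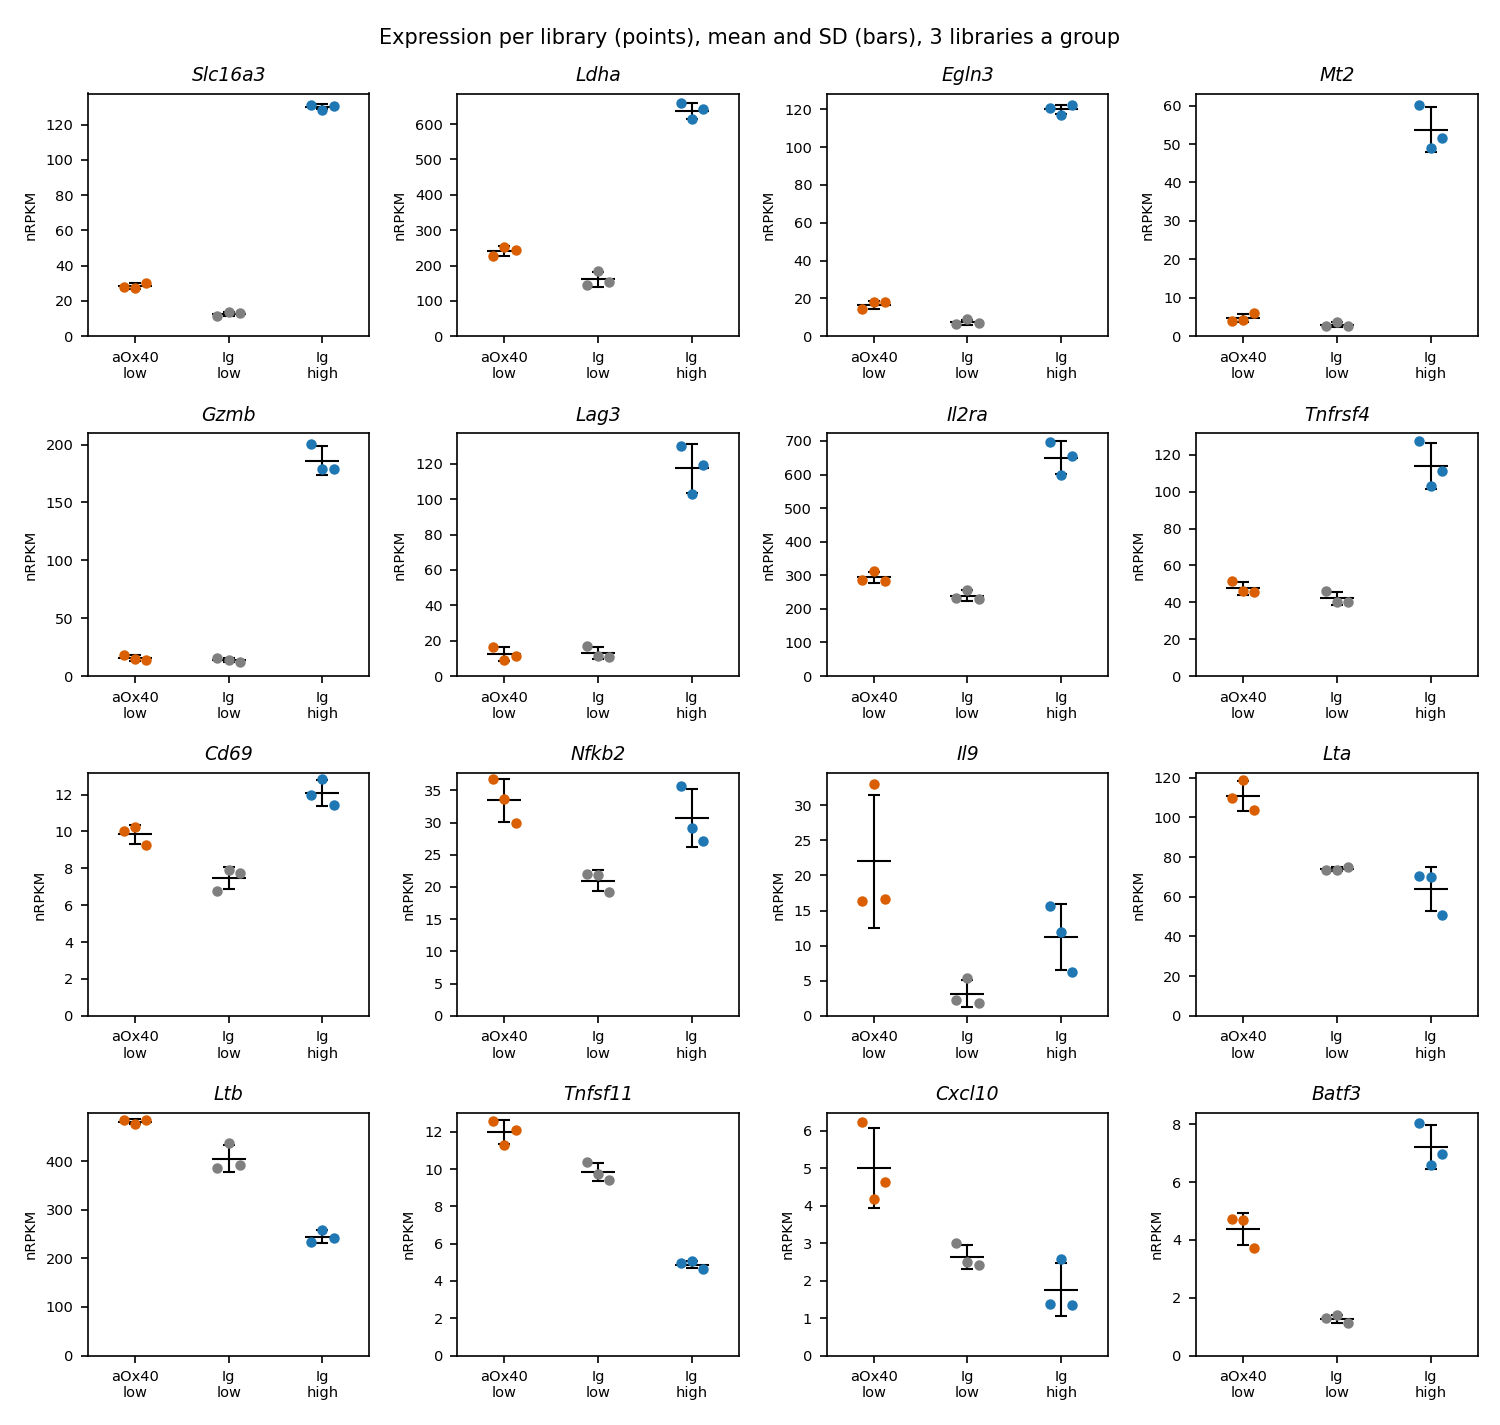
Panels give nRPKM by library (points) with the mean and SD of 3 libraries for anti-Ox40 with low beads, control Ig with low beads and control Ig with high beads, each on its own axis from 0. In anti-Ox40 cultures Slc16a3, Ldha, Egln3 and Batf3 lie between the control groups, Gzmb and Lag3 lie with the low-bead controls, Nfkb2 lies with high beads, and Lta, Ltb and Tnfsf11 lie above both.

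Of the Th2 and related cytokine genes, 8 of 12 tested were lower with anti-Ox40 than with high beads, against 35.9% of all tested genes, and 0 were higher, with a median of -1.25. Il4 had 4.61, 6.88 and 5.36 nRPKM with anti-Ox40, 17.1, 18.3 and 16.6 nRPKM with high beads and 2.58, 3.57 and 3.20 nRPKM in low-bead controls. Il13 differed by -1.25 and Gata3, the factor that directs Th2 differentiation, by -1.34. Il24, a cytokine of the IL-10 family, had 2.73, 6.10 and 3.56 nRPKM with anti-Ox40 and 45.9, 55.1 and 56.7 nRPKM with high beads, a difference of -3.43. Il10, an inhibitory cytokine, differed by -2.67 and the chemokine receptor gene Ccr8 by -2.73. Il9, a cytokine of Th9 cells that supports mast cells, went against this order. It had 16.4, 33.0 and 16.6 nRPKM with anti-Ox40, 15.6, 11.9 and 6.27 nRPKM with high beads and 2.23, 5.41 and 1.86 nRPKM in low-bead controls. The anti-Ox40 and high-bead libraries did not overlap, but the difference of 0.91 ± 0.41 was not called (adjusted p = 0.0643, and 0.037 to 0.27 with any library left out), and the gene was singled out after its values were seen. Il5 and Csf2 were not called.

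Helper and effector genes included members on both sides. Il21, the cytokine of follicular helper T cells, had 6.36, 4.52 and 3.99 nRPKM with anti-Ox40, 24.6, 21.5 and 14.8 nRPKM with high beads and 2.21, 1.23 and 1.12 nRPKM in low-bead controls (-1.83). Icos differed by -1.23, while Bcl6, the defining factor of that lineage, had 9.90, 8.64 and 8.41 nRPKM with anti-Ox40 and 2.41, 2.45 and 2.94 nRPKM with high beads (1.47). In that list 7 of 11 tested genes were higher and 4 were lower. With the nuclear RNA covariate 4 were higher, beside 2090 of all 13075 tested genes. Among Th1 and cytotoxic genes 6 of 18 were higher and 6 lower, near the shares of all tested genes (27.6% and 35.9%). Gzmb (chr14:56258836-56262334), which encodes granzyme B, had 18.2, 14.9 and 13.8 nRPKM with anti-Ox40 and 200, 179 and 179 nRPKM with high beads, a difference of -3.50 ± 0.12. Low-bead controls, at 15.2, 14.1 and 12.2 nRPKM, overlapped the anti-Ox40 range. Tbx21, the factor of Th1 cells, differed by -1.79, and Lag3, an inhibitory receptor, by -3.19. Il18r1 and Il18rap, the chains of the IL-18 receptor, were higher with anti-Ox40 by 2.34 and 1.66. Il18r1 had 30.0, 23.1 and 24.7 nRPKM there, against 4.42, 4.55 and 3.97 nRPKM with high beads. Ifng was low in both, at 3.54, 3.95 and 3.25 nRPKM with anti-Ox40 and 1.34, 2.42 and 1.23 nRPKM with high beads (0.81).

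Glycolysis genes were lower in anti-Ox40 cultures with little exception. Of 22 tested glycolysis genes, 21 were lower with anti-Ox40 and 0 were higher, against 35.9% and 27.6% of all tested genes. Their median was -1.26. The list's median antibody effect at low beads was 0.43 and its median bead effect was 1.81. Slc16a3, a lactate exporter, had 27.7, 27.3 and 30.3 nRPKM with anti-Ox40, 131, 128 and 131 nRPKM with high beads and 11.4, 13.5 and 13.1 nRPKM in low-bead controls. The 3 groups did not overlap, and the difference from high beads was -2.16 ± 0.06 (adjusted p = 7.6e-13). Ldha, which makes lactate, had 226, 252 and 245 nRPKM with anti-Ox40 and 658, 614 and 642 nRPKM with high beads (-1.40). The glucose transporter genes Slc2a1 and Slc2a3 differed by -1.59 and -2.50 and the hexokinase gene Hk2 by -1.73. Pfkfb4 was the member not called. Gapdh and Pgk1 were at most 9.02 nRPKM in any of the 6 libraries, and both genes have processed pseudogenes that can share reads with them, so their values are uncertain. Targets of hypoxia-inducible factors, many of them regulators of oxygen sensing and glycolysis, were lower for 20 of 22 tested and higher for 1, Car9, with a median of -1.26. Egln3, an oxygen-sensing prolyl hydroxylase, had 14.2, 17.9 and 17.9 nRPKM with anti-Ox40, 121, 117 and 122 nRPKM with high beads and 6.58, 8.99 and 6.95 nRPKM in low-bead controls (-2.79). The mitochondrial genes Bnip3, Ak4 and Mgarp differed by -2.14, -2.18 and -2.29, and Hif1a itself by -1.18. Car9 was at most 1.07 nRPKM, passed the level filter in 4 of the 6 fits without a library and was called in each of those.

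Promoters of Slc16a3 and Egln3 are shown because both genes lay between low-bead controls and high beads in every anti-Ox40 library. The windows run from 250 bases before to 50 bases after the annotated start (RefSeq, GRCm38.p6), 5′ to 3′ on the strand of the gene. Capitals mark ACGTG on either strand, the core of the hypoxia response element. The Slc16a3 window is chr11:120948817-120949116 on the plus strand and the Egln3 window is chr12:54203825-54204124 on the minus strand.
Slc16a3: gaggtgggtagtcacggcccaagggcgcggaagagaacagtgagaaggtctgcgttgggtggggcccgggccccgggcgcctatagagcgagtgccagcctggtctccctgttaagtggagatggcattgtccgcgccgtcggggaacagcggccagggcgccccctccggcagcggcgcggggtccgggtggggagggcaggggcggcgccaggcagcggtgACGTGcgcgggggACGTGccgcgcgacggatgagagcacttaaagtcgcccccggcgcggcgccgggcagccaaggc
Egln3: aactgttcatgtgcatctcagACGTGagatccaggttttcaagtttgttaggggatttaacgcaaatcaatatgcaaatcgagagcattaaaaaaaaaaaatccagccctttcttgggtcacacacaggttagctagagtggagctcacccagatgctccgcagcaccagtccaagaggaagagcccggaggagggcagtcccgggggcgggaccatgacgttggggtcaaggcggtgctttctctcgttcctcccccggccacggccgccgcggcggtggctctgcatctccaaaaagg
Slc16a3 holds 2 such cores and Egln3 holds 1. Of promoter windows in the RefSeq table, 19.6% hold at least 1. By gene, the core was in 14 of 21 matched glycolysis genes and 15 of 19 matched hypoxia-inducible factor targets, against 21.8% of all 27025 genes in that table. A match is a description of these letters and not a bound site. The second list was chosen as targets of these factors, and the 27025 genes include many not tested here. These shares are therefore no test of a role of the factors.

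The metallothionein genes Mt1 and Mt2, which encode small proteins that bind zinc and copper, were among the largest differences. Mt2 had 3.92, 4.25 and 6.08 nRPKM with anti-Ox40, 60.3, 49.1 and 51.7 nRPKM with high beads and 2.74, 3.80 and 2.59 nRPKM in low-bead controls. Mt1 had 9.91, 9.27 and 12.5 nRPKM with anti-Ox40, 95.2, 76.8 and 88.5 nRPKM with high beads and 5.07, 6.12 and 5.22 nRPKM in low-bead controls. The differences from high beads were -3.26 and -2.93. Their promoters are shown because these neighbouring genes differed together. Capitals mark TGCNCNC on either strand, a looser form of the metal response element core TGCRCNC (R is A or G). The windows are chr8:94178839-94179138 for Mt1 and chr8:94172368-94172667 for Mt2, both on the plus strand.
Mt1: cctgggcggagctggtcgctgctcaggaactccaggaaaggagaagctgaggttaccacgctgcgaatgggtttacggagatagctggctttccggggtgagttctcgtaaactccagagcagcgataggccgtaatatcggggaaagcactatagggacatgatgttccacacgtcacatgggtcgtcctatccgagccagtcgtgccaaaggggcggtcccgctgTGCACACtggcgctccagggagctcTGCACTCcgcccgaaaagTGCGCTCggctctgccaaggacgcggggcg
Mt2: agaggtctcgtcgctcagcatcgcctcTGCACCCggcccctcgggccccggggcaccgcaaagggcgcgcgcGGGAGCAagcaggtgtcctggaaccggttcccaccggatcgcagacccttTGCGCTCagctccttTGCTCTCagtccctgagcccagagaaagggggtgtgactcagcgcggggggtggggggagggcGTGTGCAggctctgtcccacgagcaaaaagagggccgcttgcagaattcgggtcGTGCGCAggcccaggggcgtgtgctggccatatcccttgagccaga
Mt1 holds 3 matches to the looser form and Mt2 holds 6, of which TGCTCTC and GGGAGCA fall outside the core. Of all windows, 51.0% hold at least 1 match to the looser form. Of 10 tested genes of zinc handling, 4 were lower with anti-Ox40 and 2 were higher, near the 35.9% and 27.6% of all tested genes; the zinc exporter gene Slc30a1 was higher by 0.50.

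Biosynthesis genes were lower with anti-Ox40 almost throughout. In cholesterol and fatty acid synthesis 28 of 28 tested genes were lower, against 35.9% of all tested genes, with a median of -0.61. Scd2, a fatty acid desaturase, had 37.8, 44.3 and 41.7 nRPKM with anti-Ox40 and 210, 229 and 229 nRPKM with high beads (-2.40). Cyp51, an enzyme of cholesterol synthesis, differed by -0.93. Among amino acid and one-carbon genes 24 of 25 were lower, with a median of -0.74. Psat1, an enzyme of serine synthesis, had 79.8, 88.4 and 82.2 nRPKM with anti-Ox40 against 167, 151 and 161 nRPKM with high beads. Asns, asparagine synthetase, differed by -0.95 and the amino acid transporter gene Slc7a5 by -0.78. Genes of MYC and ribosome biogenesis were lower for 23 of 26 and oxidative phosphorylation genes for 23 of 24, with medians of -0.39 and -0.37. With the nuclear RNA covariate these counts were 5 and 5, beside 2383 of all 13075 tested genes. Myc had 73.6, 81.1 and 74.7 nRPKM with anti-Ox40 and 115, 115 and 110 nRPKM with high beads.

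Division genes were also lower, by modest steps. All 31 tested DNA replication genes were lower with anti-Ox40, but their differences lay between -0.79 and -0.23, and the median was -0.60. The list's median antibody effect was 0.26 and its median bead effect 0.85. Mcm5, a subunit of the replicative helicase, had 101, 113 and 101 nRPKM with anti-Ox40, 164, 161 and 167 nRPKM with high beads and 80.3, 102 and 80.5 nRPKM in low-bead controls. Of 26 mitosis genes 25 were lower, with a median of -0.49, and the count was 11 with the nuclear RNA covariate. Ccnb2, a mitotic cyclin, was the exception, with 53.1, 65.7 and 67.3 nRPKM with anti-Ox40 and 70.5, 78.6 and 79.1 nRPKM with high beads (-0.30, adjusted p = 0.0798). Among inhibitors of cyclin-dependent kinases, Cdkn1a (p21) had 18.9, 20.1 and 18.2 nRPKM with anti-Ox40 and 66.2, 51.1 and 52.9 nRPKM with high beads. Cdkn1b (p27) ran the other way, with 65.6, 58.3 and 61.5 nRPKM against 31.2, 37.7 and 38.4 nRPKM, and differed by 0.78. Among G1 cyclins and cell cycle inhibitors as a list 14 of 19 tested were lower and 4 higher. Of 15 tested p53 targets 10 were lower and 2 higher, and of 12 tested BCL2 family genes 6 were lower and 0 higher, beside 35.9% lower and 27.6% higher among all tested genes. With the nuclear RNA covariate 3 p53 targets and 2 BCL2 family genes were lower, beside 2383 of all 13075 tested genes. Bcl2l1, which encodes the survival protein BCL-XL, had 12.4, 15.01 and 13.8 nRPKM with anti-Ox40, against 23.9, 20.4 and 21.2 nRPKM with high beads (-0.63).

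**Figure D4:**
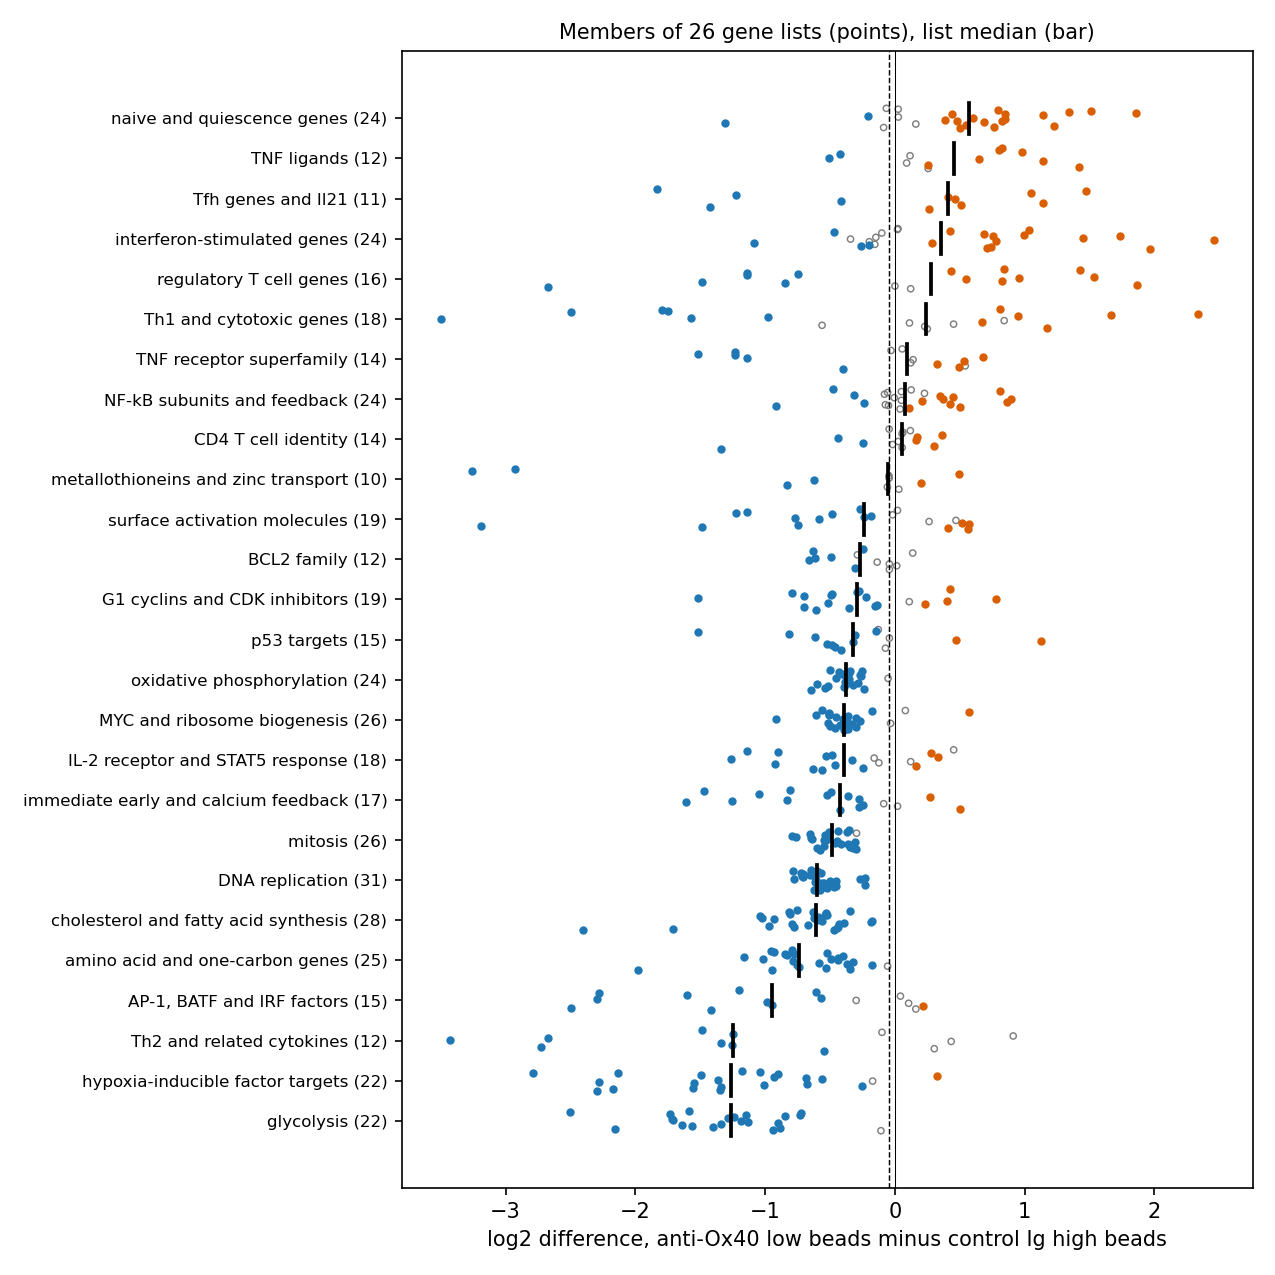
Points are the tested members of each of the 26 lists (number in brackets), coloured orange when called higher with anti-Ox40, blue when called lower and open when not called. Black bars are list medians, the dashed line is the median of all tested genes at -0.04, and list medians run from 0.57 for naive and quiescence genes to -1.26 for glycolysis.

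Some genes of the bead lists were nonetheless close to the high-bead level. The lists rest on high beads against none, so this closeness alone does not show an effect of the antibody. Among the 300 bead-raised genes 14 had a 95% interval within 0.5 log2 units of 0, and among the 300 bead-lowered genes 7 had, against 58.6% of all tested genes. Vim, which encodes the intermediate filament protein vimentin, had 863, 839 and 833 nRPKM with anti-Ox40, 905, 1047 and 998 nRPKM with high beads and 582, 594 and 550 nRPKM in low-bead controls. Its difference of -0.22 was called at an adjusted p of 0.0469, but in 1 of 6 fits without a library, and it was 0.07 after quantile normalization. Its antibody effect at low beads was 0.55 (adjusted p = 0.0037). Most of the other named genes of this kind belong to division: E2f8, Mxd3 and Racgap1 were not called, and Tyms, Nek2 and Melk differed by -0.23, -0.25 and -0.27. E2f8, a repressive factor of the E2F family, had 16.002, 19.0 and 19.2 nRPKM with anti-Ox40, 18.3, 19.5 and 21.5 nRPKM with high beads and 14.5, 17.4 and 17.0 nRPKM in low-bead controls, so the anti-Ox40 range overlapped both others. Stra6, a retinol transporter, was among the 14 bead-raised genes not called, but its 95% interval was not within 0.5 log2 units of 0. It was picked after its values were seen. It had 4.59, 6.86 and 3.23 nRPKM with anti-Ox40, 6.75, 6.93 and 6.93 nRPKM with high beads and 0.630, 1.82 and 0.512 nRPKM in low-bead controls (adjusted p = 0.066 against high beads).

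Naive and quiescence genes were mostly higher with anti-Ox40 than with high beads, for 17 of 24 members, against 27.6% of all tested genes, with 2 lower and a median of 0.57. S1pr1, the receptor for exit from lymphoid tissue, had 116, 119 and 122 nRPKM with anti-Ox40, 32.3, 49.1 and 43.8 nRPKM with high beads and 128, 147 and 139 nRPKM in low-bead controls (1.51). Klf2, the factor that drives S1pr1, differed by 1.34, Tcf7 by 1.15 and the IL-7 receptor gene Il7r by 0.79. Ccr7, which encodes a lymph node homing receptor, was not called, at 0.03. Satb1, a chromatin organiser, and Foxo1 were the lower members, at -1.31 and -0.21. Regulatory T cell genes were higher for 8 of 16 and lower for 6. With the nuclear RNA covariate 5 were higher, beside 2090 of all 13075 tested genes. Foxp3, the defining factor of those cells, had 75.2, 48.9 and 61.5 nRPKM with anti-Ox40 and 42.7, 24.9 and 35.7 nRPKM with high beads (0.84). Ikzf2 and Nrp1 differed by 1.43 and 1.54, while Ctla4, an inhibitory receptor, differed by -0.74. For Foxp3, Ikzf2 and Nrp1 the antibody effect at low beads was not called. Interferon-stimulated genes were higher for 13 of 24, against 27.6% of all tested genes, and lower for 4, with a median of 0.36. Ifit3 had 3.95, 3.37 and 3.10 nRPKM with anti-Ox40 and 0.303, 0.442 and 0.283 nRPKM with high beads, whereas Gbp2, a guanylate-binding protein gene, differed by -1.09.

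The largest differences of all were led by Tgm2 (chr2:158116405-158146392), which encodes the crosslinking enzyme transglutaminase 2. It had 11.0, 10.9 and 10.6 nRPKM with anti-Ox40, 229, 207 and 162 nRPKM with high beads and 5.45, 7.98 and 3.99 nRPKM in low-bead controls, a difference of -4.07 ± 0.17. Tg, the thyroglobulin gene, had 0.696, 0.667 and 0.628 nRPKM with anti-Ox40 and 16.4, 15.9 and 13.9 nRPKM with high beads. Cyp11a1, the enzyme of the first step of steroid synthesis, differed by -2.85, and Kremen2, a receptor that modulates Wnt signalling, by -3.08. On the other side, Ms4a4b, a membrane protein gene of T cells, had 432, 451 and 454 nRPKM with anti-Ox40 and 56.6, 113 and 113 nRPKM with high beads (2.30). Scg5, a neuroendocrine chaperone, had 35.7, 38.4 and 41.0 nRPKM with anti-Ox40 and 4.07, 7.44 and 6.30 nRPKM with high beads. The neutrophil granule genes Mpo and Elane were also among the largest rises, at 2.51 and 2.16. Mpo had 6.16, 5.59 and 7.54 nRPKM with anti-Ox40, 0.091, 0.550 and 0.283 nRPKM with high beads and 4.94, 6.39 and 7.20 nRPKM in low-bead controls. Granule genes of myeloid precursors are not expressed by T cells, and their part in the differences of other genes was not tested. Snord35b had the largest named rise (2.80), but it is a small nucleolar RNA inside another gene, whose reads cannot be separated from it here. The 24 genes of largest rise and fall were called in all 6 fits without a library. They were picked as the largest called differences in these same libraries, so this adds little support. Those fits held 90.2% to 92.3% of all 8300 called genes.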

How the data were processed

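RNA of 18 libraries, 3 in each of 6 groups, was measured by sequencing. The authors deposited 1 table of nRPKM, an RPKM value with a further normalization between libraries; how reads were counted, annotated and scaled is not given in the sources used here. Per the submitters' processing notes, the aligner was GSNAP and the genome build GRCm38. The table has 36528 entries. The values give no read totals, so depth was worked out from microRNA genes: those worth 1 to 5 reads fell on whole reads in 100% of cases within 0.1 read, and this covers counting error only.

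Genes with at least 1 nRPKM in at least 3 of 18 libraries (13075) were tested on log2(nRPKM + 1), which understates the change of low genes. A model with 6 group means was fitted with limma 3.58.1 in R 4.3.3 (eBayes with trend, 12 residual degrees of freedom), with Benjamini-Hochberg adjustment over all tested genes, 2-sided. It was tested on simulated data. Intervals are 95% intervals of that model. The labels give no replicate numbers, so libraries were numbered in accession order and not paired. The bead lists hold the 300 most raised and 300 most lowered genes of high minus no beads under anti-Ox40.

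Members and the 26 theme and 11 marker lists were chosen with earlier results of these data known. Named genes are Tnfrsf4, Tnfsf4, Il2ra and Cd69, the 12 largest called rises and falls with groups that do not overlap, up to 3 called members of each list by adjusted p, and up to 8 bead-raised genes by largest rise, up to 8 by smallest difference and up to 8 bead-lowered genes by largest fall; other list members are given as examples. Symbols starting with Gm and a digit, ending in Rik or -ps, or turned into dates were passed over. Alternatives changed the pseudocount, the level filter, the scaling, the trend, the libraries fitted and covariates. Promoters and coordinates are from RefSeq tables of GRCm38.p6.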

Additional observations from a re-analysis of the deposited data

How the results depend on the processing

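Across 17 alternatives, 4473 to 8923 genes were called. The lowest number came with the nuclear RNA score as a covariate (2090 higher, 2383 lower), and 4113 of those genes were among the 8300, 6 of them with the opposite sign. Leaving out 1 library gave 7650 to 7862 called genes, which held 90.2% to 92.3% of the 8300. Without a filter on low values 19965 genes had a 95% interval within 0.5 log2 units of 0, since genes near 0 were then included. Bead-lowered genes called lower numbered 2 in a fit to only the 6 libraries compared, 0 to 1 with a library left out, and 0 without the replicate 3 libraries of both groups, which had the most B cell RNA, an alternative chosen after seeing the data. Bead-raised genes called higher numbered 0 to 1 with a library left out; without control Ig high-bead replicate 1 that gene was Il9. Vim was reversed, at 0.0658, under quantile normalization; the cause was not tested. Another covariate added after seeing the data, lung transcripts, gave 8162 called genes. Of 98 named genes, 90 kept their direction and side of the threshold with the nuclear RNA covariate and at least 93 in every other setting. No paired analysis was possible because the labels give no number shared between groups. Some genes, picked after their values were seen, had the same accession-order library highest in the anti-Ox40, high-bead and low-bead control groups (replicate 1 for Foxp3 and Il21), and whether libraries of a number share a source was not tested. Read totals are unknown, and genes with few reads, such as Slc7a11 or Car9, carry the largest counting error.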

Other observations

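Several gene families were looked at by symbol, after their values were seen, and are given without a test of the family. Some members also stand in the lists above, among them Ifi203, Ifi204, Slfn2 and Ms4a1. All 9 tested genes of the Ifi200 family, interferon-inducible DNA-binding proteins encoded side by side, were higher with anti-Ox40 than with high beads, against 27.6% of all genes, with a median of 1.18. Ifi203 had 16.8, 14.5 and 18.6 nRPKM with anti-Ox40 and 1.35, 2.94 and 2.49 nRPKM with high beads, and Pydc3, Mndal and Pyhin1 differed by 2.48, 2.23 and 1.501. These genes are near-identical in places, so reads may be shared between them. Of 9 Ms4a genes 5 were higher and 1 was lower; Ms4a4c had 10.7, 10.2 and 13.7 nRPKM with anti-Ox40 and 1.49, 2.71 and 3.26 nRPKM with high beads. Of 8 Schlafen genes 5 were higher and 1 was lower.

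On the lower side, all 7 tested subunit genes of the Cct chaperonin and 35 of 38 proteasome subunit genes (Psm symbols) were lower with anti-Ox40, against 35.9% of all genes, with medians of -0.44 and -0.47. Of 73 ribosomal protein genes 52 were lower and 1 was higher, with a median of -0.32. Their median bead effects in control Ig were 0.66, 0.63 and 0.37, beside median antibody effects of 0.20, 0.19 and 0.05. Ribosomal protein genes have processed pseudogenes that can share reads with them, so the values of that family are uncertain. The pseudogene Rpl14-ps1 had a group mean of 8.95 on the log2(nRPKM + 1) scale with anti-Ox40, against 3.43 for Rpl5.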
